A study of Homo sapiens with 6 samples.

Results

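The 8 genes described here encode the core of the apoptosome (*APAF1* and *CYCS*), 4 inhibitors of apoptosis proteins, or IAPs (*XIAP*, *BIRC2*, *BIRC3* and *BIRC6*), and 2 mitochondrial antagonists of the IAPs (*DIABLO* and *HTRA2*). They were chosen by symbol, and all 8 were found by Ensembl identifier among the 58336 genes of the deposited count table. RNA came from A2780 cells, a human ovarian cancer line kept in the same insulin-supplemented medium throughout, which received either DMSO vehicle or 6 µM TH588, a first-generation mitotic MTH1 inhibitor (TH-588 in the labels), for 48 h. There were 3 libraries per treatment, with replicate letters A, B and C, and every library came from this 1 cell line. Of the 8 genes, 7 had enough counts to be tested among 15844 genes, and *BIRC3* did not.

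Apoptosis through mitochondria begins when cytochrome c, the product of *CYCS*, leaves the space between the mitochondrial membranes and binds APAF1 in the cytosol. APAF1 then assembles into a wheel-shaped complex, the apoptosome, which activates the initiator caspase encoded by *CASP9*, and that enzyme in turn activates the executioner caspases. IAPs carry baculoviral IAP repeat (BIR) domains, through which XIAP binds and blocks caspases, and several IAPs are also ubiquitin ligases. SMAC, encoded by *DIABLO*, and the serine protease encoded by *HTRA2* are released from the same compartment and bind the BIR domains, which frees the caspases. Cytochrome c also carries electrons between respiratory complexes in cells that are not dying.

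After TH588, 1 of the 7 tested genes fell, 3 rose and 3 did not pass an adjusted p under 0.05 in edgeR's quasi-likelihood test. *CYCS* fell 2.51-fold, while *HTRA2*, *BIRC2* and *APAF1* rose 1.44-fold, 1.29-fold and 1.28-fold. *XIAP*, *BIRC6* and *DIABLO* did not pass the test. Over all 15844 genes tested, 24.4% were higher and 25.5% were lower by the same rule, 49.9% in either direction, so that 4 of 7 called genes is near the background. In the same 4 genes the CPM ranges of the treatments did not overlap, as in 57.7% of all genes tested. With library size as the only scaling, 4253 genes were higher and 2786 lower, against 3861 and 4047 after TMM scaling, and the same 3 genes rose and the same gene fell.

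The bases upstream of 4 of the genes are shown first, because *CYCS* and *BIRC6* share a motif and only *CYCS* passed the test, and because *BIRC3*, with almost no counts, and *HTRA2*, which rose, share another. They were taken from RefSeq windows on GRCh38.p14 and end before the first exon base of the gene in the count table. Capitals mark matches on either strand to the core of the NRF1 motif, spelled GCGCATGC, or GCATGCGC on the other strand, or to the kappaB consensus. *CYCS* lies on the minus strand (chr7:25125362-25125510), and the others on the plus strand (*BIRC6*, chr2:32356773-32357022, *BIRC3*, chr11:102317234-102317449, and *HTRA2*, chr2:74529155-74529376).
CYCS: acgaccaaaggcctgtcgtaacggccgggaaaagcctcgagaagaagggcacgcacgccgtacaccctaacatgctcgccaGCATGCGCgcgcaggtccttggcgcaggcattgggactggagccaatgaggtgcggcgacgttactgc
BIRC6: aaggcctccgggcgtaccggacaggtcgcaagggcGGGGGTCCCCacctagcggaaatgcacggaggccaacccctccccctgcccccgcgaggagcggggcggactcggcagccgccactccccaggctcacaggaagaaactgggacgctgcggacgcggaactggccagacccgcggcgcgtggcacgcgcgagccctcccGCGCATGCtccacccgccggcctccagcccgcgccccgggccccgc
BIRC3: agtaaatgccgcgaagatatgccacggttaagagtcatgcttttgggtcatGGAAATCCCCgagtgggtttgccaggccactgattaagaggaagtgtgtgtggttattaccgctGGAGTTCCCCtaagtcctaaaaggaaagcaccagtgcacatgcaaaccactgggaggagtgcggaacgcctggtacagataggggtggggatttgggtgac
HTRA2: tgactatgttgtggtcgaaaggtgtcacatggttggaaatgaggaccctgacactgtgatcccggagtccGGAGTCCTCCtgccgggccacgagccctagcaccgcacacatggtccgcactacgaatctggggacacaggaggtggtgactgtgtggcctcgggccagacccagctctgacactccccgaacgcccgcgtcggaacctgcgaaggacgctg

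All 8 genes had at least 1 RefSeq window, 16 in all, and the 250 bases upstream of each start were searched. NRF1 is a transcription factor of nuclear genes for the respiratory chain. Its core motif lay in the *CYCS* window, from 169 to 162 bases upstream of the RefSeq start, and in both overlapping *BIRC6* windows at a single site, against 2.6% of the 35116 windows of all genes. The kappaB consensus, bound by NF-κB dimers, was matched 2 times in the *BIRC3* window and once each in windows of *BIRC6* and *HTRA2*, against 12.3% of all windows. The cAMP response element, spelled TGACGTCA on both strands, lay in a *BIRC2* window that starts further downstream, against 1.6% of all windows. No window of the 8 genes matched the E2F motifs TTTCCCGC and TTTGGCGC, found in 1.9% of all windows. None of these matches overlapped one another. These are matches of letters and are not evidence of binding.

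Total counts ranged from 28537837 to 99074175 per library, and the 5 deepest libraries held at least 77634048. TH588 replicate A had the lowest total, and 21.9% of it came from *SNORD3A*, a small nucleolar RNA, which made up 7.68% to 13.0% of the other libraries. Without this library the log2 fold changes given below became 0.42 for *APAF1*, 0.38 for *BIRC2*, 0.61 for *HTRA2*, 0.41 for *DIABLO*, -0.03 for *XIAP* and -0.07 for *BIRC6*, and each stayed on its side of the threshold. *CDKN1A*, the gene of the cell cycle inhibitor p21, was at most 5.72 CPM (counts-per-million, scaled by TMM) in the DMSO libraries and at least 112 CPM in the TH588 libraries, so the labels separated them. Of 8 epithelial and ovarian markers only *KRT18* reached 1 CPM in every library, at 3.56 ± 0.373 CPM with DMSO and 6.54 ± 0.435 CPM given TH588 (± SD, n = 3 each). *EPCAM* rose from 0.644 ± 0.212 to 4.74 ± 0.350 CPM (edgeR adjusted p = 1.38e-07), while *PAX8*, *CDH1*, *WT1*, *KRT19* and *MUC16* had at most 15 counts in any library, and the summed level of the list was 3.82 to 4.60 CPM with DMSO and 10.9 to 12.2 CPM with TH588. All 5 mesenchymal markers exceeded 1 CPM in every library, led by *VIM* at 3586 CPM with DMSO. The defining markers of immune and endothelial cells, *PTPRC*, *CD3E* and *PECAM1*, had at most 10 counts in any library. The part of the epithelial markers in the results below was not tested. In bulk RNA, fewer cells that carry a transcript and less transcript in each cell cannot be told apart.

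*CYCS* (ENSG00000172115, chromosome 7 from 25120091 to 25125361 of GRCh38, minus strand) encodes cytochrome c, the mitochondrial electron carrier that triggers the apoptosome. It stood at 485, 550 and 541 CPM in the A, B and C libraries given DMSO, and at 271, 172 and 187 CPM in those given TH588. Every TH588 library lay below every DMSO library, and TH588 replicate A was the highest of the treated libraries. The mean was 525 ± 35.1 CPM for DMSO and 210 ± 53.5 CPM for TH588 (± SD, n = 3 each). This was a log2 fold change of -1.32 (standard error 0.15, 95% interval -1.67 to -0.98, edgeR adjusted p = 4.40e-05). Only 2.22% of all genes tested had a log2 fold change as low. Without TH588 replicate A the log2 fold change was -1.54 (edgeR adjusted p = 2.87e-08).

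The count of *CYCS* is open to shared reads, because the gene has many processed copies. The table held 42 annotated *CYCS* pseudogenes, of which 11 had any count. Together they held 48 to 101 counts per DMSO library and 25 to 60 per TH588 library, or 0.206% of the counts of the gene and its pseudogenes pooled over the 6 libraries. How reads that match several genes were counted is not given in the sources used here, so reads from copies that were assigned to *CYCS*, or dropped, cannot be seen. No exon base of *CYCS* overlapped an exon of another gene.

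*APAF1* (ENSG00000120868, chromosome 12 from 98645141 to 98735433, plus strand) encodes the scaffold of the apoptosome. Its levels were 24.1, 26.0 and 29.9 CPM in the A, B and C libraries given DMSO, and 31.6, 32.3 and 38.3 CPM in those given TH588. The groups did not overlap, but the gap between the highest DMSO library and the lowest TH588 library was small beside the range within each group. The mean rose from 26.7 ± 2.94 to 34.1 ± 3.69 CPM (mean ± SD of 3 libraries each). The log2 fold change was 0.36 (standard error 0.11, 95% interval 0.13 to 0.59, edgeR adjusted p = 0.0121). Without TH588 replicate C it was 0.28 and no longer passed the threshold (edgeR adjusted p = 0.0553). Exons of *ANKS1B*, on the opposite strand, overlap 9.5% of the exon bases of *APAF1*, and *ANKS1B* also rose, with a log2 fold change of 0.51 (edgeR adjusted p = 0.00191). The library kit does not mark strand, so reads from the shared bases cannot be assigned to either gene.

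The proportion of the 2 apoptosome transcripts therefore moved. Per exon length, *CYCS* exceeded *APAF1* by 35.7, 37.5 and 32.1 times in the A, B and C libraries given DMSO, and by 15.2, 9.45 and 8.65 times in those given TH588. The mean ratio was 35.1 ± 2.75 with DMSO and 11.1 ± 3.58 with TH588 (± SD, n = 3 each), without overlap. *CYCS* remained the more abundant of the 2 in every library.

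**Figure D1:**
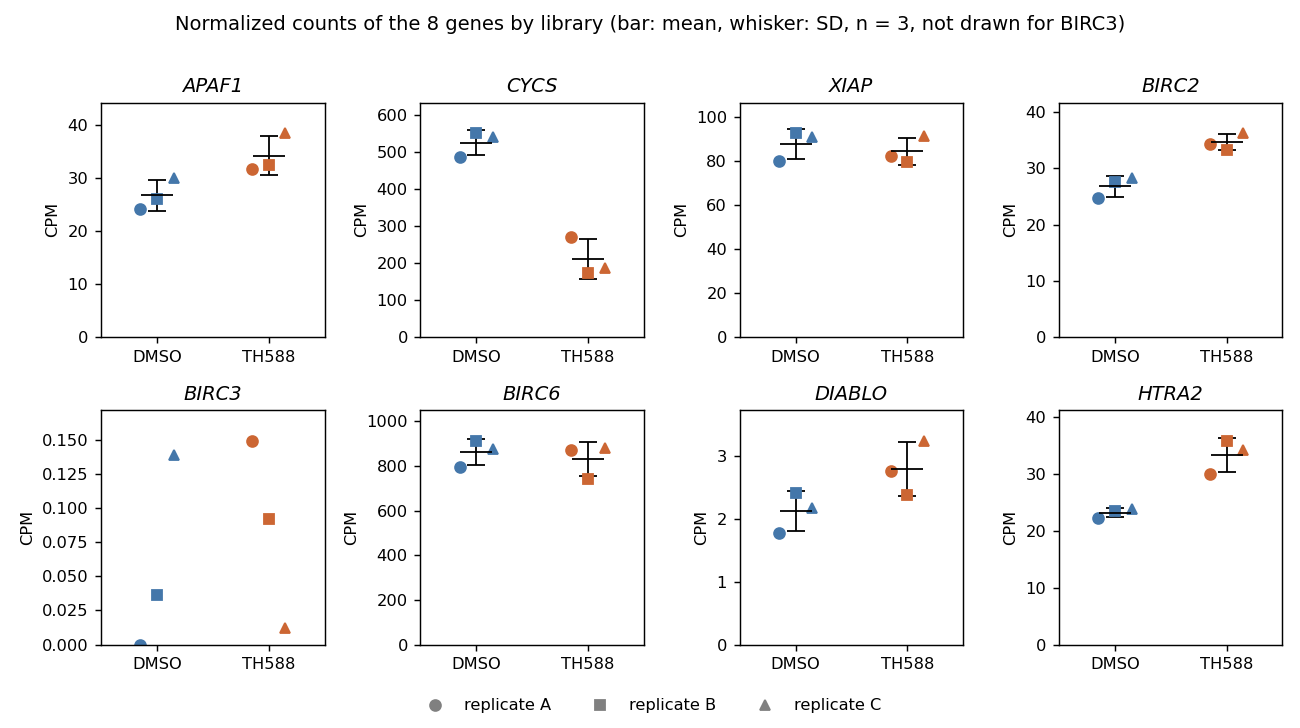
Normalized counts (CPM, linear axis from 0) of the 8 genes in the 3 DMSO and 3 TH588 libraries. Points are libraries, with a symbol for each replicate letter, bars are means and whiskers SD. *CYCS* sits at 172 to 271 CPM with TH588 against 485 to 550 CPM with DMSO, while the libraries of *XIAP*, *BIRC6*, *DIABLO* and *BIRC3* overlap. No mean is drawn for *BIRC3*, which had at most 13 counts per library.

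Among the IAPs, *XIAP* (ENSG00000101966, chromosome X from 123859724 to 123913979, plus strand) encodes the direct inhibitor of the initiator caspase and the executioner caspases. It stood at 80.1, 92.7 and 90.9 CPM in the A, B and C libraries given DMSO, and at 82.6, 79.5 and 91.4 CPM in those given TH588. The groups overlapped, and the lowest and the second lowest library came from different treatments. The means were 87.9 ± 6.85 and 84.5 ± 6.19 CPM (± SD, n = 3 each), and the log2 fold change was -0.06 (95% interval -0.25 to 0.13, edgeR adjusted p = 0.629). With library size only the value was 0.05. The 3 annotated *XIAP* pseudogenes held at most 20 counts per library.

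*BIRC6* (ENSG00000115760, chromosome 2 from 32357028 to 32618899, plus strand) encodes a giant membrane-associated IAP that carries its own ubiquitin-conjugating domain. Its levels were 797, 912 and 874 CPM in the A, B and C libraries given DMSO, and 871, 744 and 883 CPM in those given TH588. The lowest library was TH588 replicate B and the highest DMSO replicate B, and the ranges overlapped. The means were 861 ± 58.6 and 832 ± 77.1 CPM (mean ± SD of 3 libraries each). This was a log2 fold change of -0.05 (95% interval -0.24 to 0.14, edgeR adjusted p = 0.675). It was 0.05 with library size only. *BIRC6* and *XIAP* kept nearly the same ratio per exon length, 4.99 ± 0.0877 with DMSO and 5.01 ± 0.315 with TH588 (± SD, n = 3 each).

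*BIRC2* (ENSG00000110330, chromosome 11 from 102347211 to 102378670, plus strand) encodes cIAP1, a ubiquitin ligase of TNF receptor complexes. It lay at 24.8, 27.5 and 28.3 CPM in the A, B and C libraries given DMSO, and at 34.4, 33.4 and 36.2 CPM in those given TH588. All 3 treated libraries were above all 3 control libraries. The mean rose from 26.9 ± 1.87 to 34.7 ± 1.46 CPM (mean ± SD of 3 libraries each). The log2 fold change was 0.37 (standard error 0.09, 95% interval 0.18 to 0.56, edgeR adjusted p = 0.00342). No exon of another gene overlapped those of *BIRC2*. Per exon length, *XIAP* exceeded *BIRC2* by 1.64 ± 0.0443 times with DMSO and by 1.22 ± 0.0381 times with TH588 (± SD, n = 3 each).

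*BIRC3* (ENSG00000023445, chromosome 11 from 102317450 to 102339403, plus strand) encodes cIAP2, the close relative of cIAP1, and ends 7807 bases before *BIRC2* starts. It held 0, 3 and 13 counts in the A, B and C libraries given DMSO, and 4, 10 and 1 counts in those given TH588. Only DMSO replicate C, TH588 replicate A and TH588 replicate B exceeded 3 counts, the limit that a count of 0 allows. That limit was 0.0276 to 0.0365 CPM in the 5 deeper libraries and 0.112 CPM in TH588 replicate A, and it covers counting error only. No change in *BIRC3* was detectable at this depth, and it did not pass the filter on low counts. With no filter its log2 fold change was 0.38 (edgeR adjusted p = 0.833). The 2 kappaB matches printed above for *BIRC3* thus stand upstream of a gene with almost no counts in either treatment.

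The IAP antagonists differed in level and in the strength of their evidence. *HTRA2* (ENSG00000115317, chromosome 2 from 74529377 to 74533348, plus strand) encodes a mitochondrial serine protease, also called Omi, that helps maintain mitochondria and binds IAPs once released. It stood at 22.3, 23.6 and 23.8 CPM in the A, B and C libraries given DMSO, and at 30.1, 35.9 and 34.3 CPM in those given TH588. Every treated library was above every control library, and TH588 replicate A was the lowest of the treated ones. The mean rose from 23.2 ± 0.805 to 33.4 ± 2.97 CPM (mean ± SD of 3 libraries each). This was a log2 fold change of 0.53 (standard error 0.09, 95% interval 0.33 to 0.73, edgeR adjusted p = 0.000276). A log2 fold change as high was found in 23.6% of all genes tested.

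Exons of 2 genes on the opposite strand cover 36.9% of the exon bases of *HTRA2*. They belong to *AUP1*, which encodes a protein of lipid droplets and the endoplasmic reticulum, and to *LOXL3*, a lysyl oxidase gene. *AUP1* was the more abundant neighbour and fell, from 159 ± 11.8 to 114 ± 7.46 CPM (mean ± SD of 3 libraries each). The log2 fold change was -0.48 (edgeR adjusted p = 0.000296). *LOXL3* rose, from 0.375 ± 0.0933 to 0.787 ± 0.115 CPM (mean ± SD of 3 libraries each). This was a log2 fold change of 1.08 (edgeR adjusted p = 0.0138). As for *APAF1*, strand cannot assign reads from the shared bases to either gene. The part of reads from either neighbour in the value of *HTRA2* was not tested.

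*DIABLO* (ENSG00000184047, chromosome 12 from 122207663 to 122226568, minus strand) encodes SMAC, the best known antagonist of the IAPs. Far fewer counts were assigned to it than to *HTRA2*. It held 146, 199 and 203 counts in the A, B and C libraries given DMSO, and 74, 258 and 270 counts in those given TH588. These corresponded to 1.78, 2.41 and 2.17 CPM with DMSO and 2.76, 2.37 and 3.24 CPM with TH588. TH588 replicate B lay within the range of the DMSO libraries, and the other treated libraries lay above it. The log2 fold change was 0.40 (standard error 0.19, 95% interval -0.01 to 0.81, edgeR adjusted p = 0.101). Of the exon bases of *DIABLO*, 30.4% lie in exons of other genes, which are *ENSG00000284934*, with 29.6%, and *ENSG00000256861*, with 16.8%, both on the same strand, and *B3GNT4* on the opposite strand with 14.3%. *B3GNT4* had 30 to 91 counts per library, against 74 to 270 for *DIABLO*, and *ENSG00000284934* had at most 16. Strand cannot separate reads of *B3GNT4* from those of *DIABLO* in the shared bases either. The part of reads from these other genes in the value of *DIABLO* was not tested. How reads in shared exons were counted is not given in the sources used here. Reads that were dropped there, which would lower the counts of *DIABLO* and *HTRA2*, cannot be seen.

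**Figure D2:**
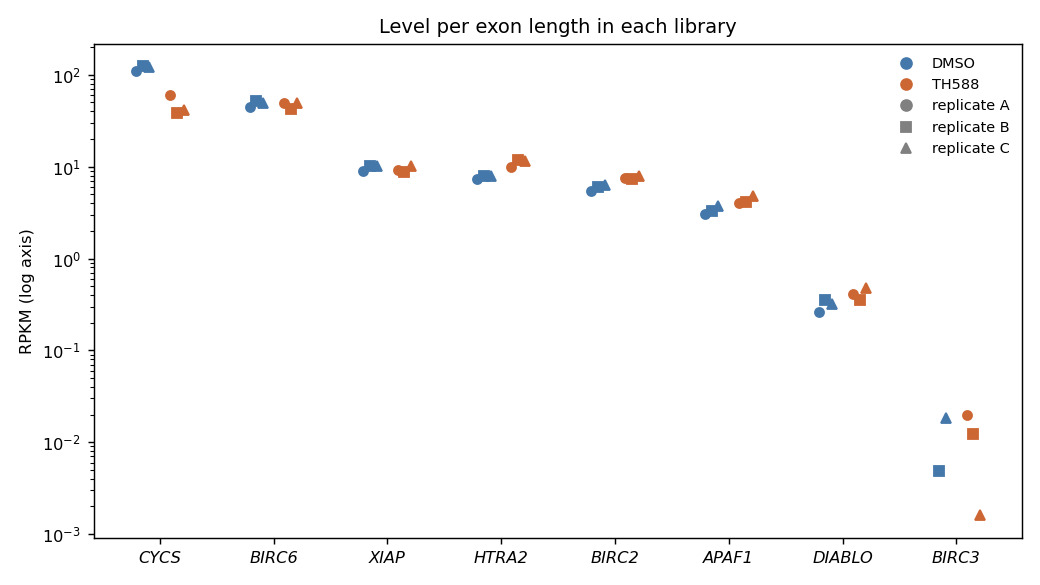
Level of each gene per exon length (RPKM, log axis) in each library, ordered by the DMSO mean. Symbols give the replicate letter and colours the treatment. With DMSO *CYCS* lies above *BIRC6* in every library, and with TH588 they overlap. *BIRC3* had a count of 0 in DMSO replicate A, which has no point.

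Compared per exon length, in RPKM (CPM divided by exon length in kilobases), the 8 genes spanned several orders of magnitude. With DMSO the order of the means was *CYCS* at 118 ± 7.87 RPKM, *BIRC6* at 48.6 ± 3.30 RPKM, *XIAP* at 9.74 ± 0.759 RPKM, *HTRA2* at 7.74 ± 0.268 RPKM, *BIRC2* at 5.93 ± 0.414 RPKM, *APAF1* at 3.37 ± 0.372 RPKM, *DIABLO* at 0.313 ± 0.0473 RPKM and *BIRC3* at 0.00777 ± 0.00957 RPKM (± SD, n = 3 each). No 2 neighbours in this order overlapped in range. With TH588, *CYCS* at 47.1 ± 12.0 RPKM and *BIRC6* at 47.0 ± 4.35 RPKM no longer differed beyond their spread, and *BIRC6* was the higher of the 2 in TH588 replicates B and C. *HTRA2*, at 11.1 ± 0.990 RPKM, overlapped *XIAP*, at 9.37 ± 0.685 RPKM, and stood above it in all 3 treated libraries when compared within a library, whereas *XIAP* stood above *HTRA2* in all 3 DMSO libraries. The remaining neighbours kept their order and did not overlap. The lengths are those of all annotated exons together, so a gene whose long untranslated exons are little used appears lower on this scale. A gene whose reads in shared exons were dropped would also appear lower. This could not be checked for *HTRA2* and *DIABLO*, with 36.9% and 30.4% of their exon bases shared.

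The summed level of *XIAP* and *BIRC2* per exon length exceeded that of *HTRA2* and *DIABLO* by 1.86, 1.99 and 1.98 times in DMSO replicates A, B and C. It did so by 1.60, 1.31 and 1.52 times in TH588 replicates A, B and C. The ratio was thus lower in every treated library, and *HTRA2* made up nearly all of the denominator. This is a ratio of transcripts, and protein levels were not measured in these files. Its size also depends on how reads in the shared exons of *HTRA2* and *DIABLO* were counted, which is not known.

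**Figure D3:**
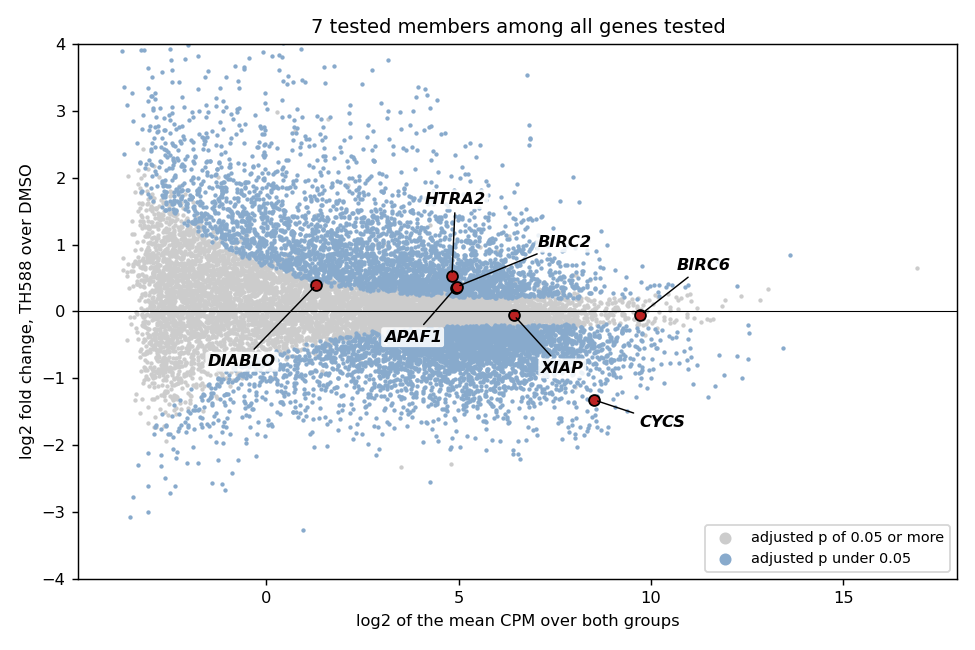
log2 fold change (TH588 over DMSO) against the log2 of the mean CPM for the 15844 genes tested, with the 7 tested genes in red. Blue points had an adjusted p under 0.05 in edgeR's quasi-likelihood test and grey points did not, and 50 genes lie beyond the axis. *CYCS* is far below 0 at high abundance, *APAF1*, *BIRC2* and *HTRA2* lie between 0.36 and 0.53, and *XIAP* and *BIRC6* lie near 0.

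For each gene that passed the test, the tested genes with the nearest profile were sought among 9762 others of at least 2 log2 CPM, by the root mean square difference of log2 CPM, each gene centred on its own mean over the 6 libraries. *BIRC2* lay nearest to *DHX40* and *TEX9*, at 0.03 each on the log2 scale. *HTRA2* lay nearest to *MOV10* (0.03) and *TAX1BP1* (0.05), and *APAF1* to *C11orf80* (0.04) and *METTL25* (0.04). *CYCS* lay nearest to the replication-dependent histone gene *H2BC11* (0.07), whose log2 fold change was -1.46, and to *ENSG00000269825* (0.09), at -1.34. These distances describe the libraries and were not tested.

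The other genes of the pathway were taken from fixed lists, and lists reported in full are described by their counts beside the background of 24.4% higher and 25.5% lower and the median log2 fold change of 0.02 over all genes tested. All 6 regulators of the apoptosome fell (median log2 fold change -0.89), and 5 of them with library size only, where *UACA* lost its call. They were *CSE1L* (-1.08) and *HSPA8* (-0.99), whose products aid nucleotide exchange on APAF1, *ANP32A* (-0.82), which promotes apoptosome activity, *PTMA* (-0.41), which restrains it, *AVEN* (-0.96), an inhibitor that binds APAF1, and *UACA* (-0.30), which recruits APAF1. Promoting and restraining factors thus fell together. *HSPA8* and *CSE1L* are abundant and have roles well beyond the apoptosome, in protein folding and nuclear transport.

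*CASP9*, the initiator that the apoptosome activates, rose from 12.0 ± 1.47 to 19.8 ± 2.23 CPM (mean ± SD of 3 libraries each). This was a log2 fold change of 0.72 (edgeR adjusted p = 0.000194). Among the parts of the complex itself, *CASP9* and *APAF1* thus rose and *CYCS* fell.

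Of the other 4 IAP genes, *BIRC5*, which encodes survivin, a mitotic protein of the chromosomal passenger complex, fell from 60.2 ± 2.68 to 27.4 ± 8.76 CPM (mean ± SD of 3 libraries each). The log2 fold change was -1.12 (edgeR adjusted p = 0.00380). TH588 replicate A was the lowest treated library, at 17.5 CPM, and without it the log2 fold change was -0.88 (edgeR adjusted p = 2.63e-06). *NAIP*, an IAP that senses bacterial proteins, had a log2 fold change of 0.27 with a wide spread among the TH588 libraries (16.7 ± 9.06 CPM, n = 3) and did not pass the test (edgeR adjusted p = 0.653). *BIRC7* and *BIRC8* had at most 1 and 3 counts in any library and were not tested. *BIRC5* was thus the IAP gene with the largest measured change, and it was the only IAP gene that fell, while *BIRC2* was the only one that rose in this test.

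Among 5 other antagonists of IAPs and their regulators, *GSPT1*, a translation termination factor with an IAP-binding form, fell by 0.60 on the log2 scale (edgeR adjusted p = 1.53e-05). *PARL*, the rhomboid protease that processes SMAC, had a log2 fold change of -0.33 (edgeR adjusted p = 0.0366), and the list kept only 1 call in 5 of the 6 fits that each left out a library. *AREL1*, a ubiquitin ligase of IAP antagonists, was at 0.04 and *SEPTIN4*, whose ARTS form binds XIAP, at 0.86, and neither passed the test (edgeR adjusted p = 0.690 and 0.137). *XAF1*, which encodes an XIAP-binding factor, had 1 count in all 6 libraries together. Among further mitochondrial death effectors, *OPA1* (-0.71) and *AIFM1* (-0.22) fell, the latter losing its call in 8 of 13 other edgeR fits, and *ENDOG* was at -0.27 without passing the test (edgeR adjusted p = 0.385). Median log2 fold changes were -0.42 for the 2 tested genes among the other IAPs and -0.15 for the 4 tested antagonists and regulators.

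**Figure D4:**
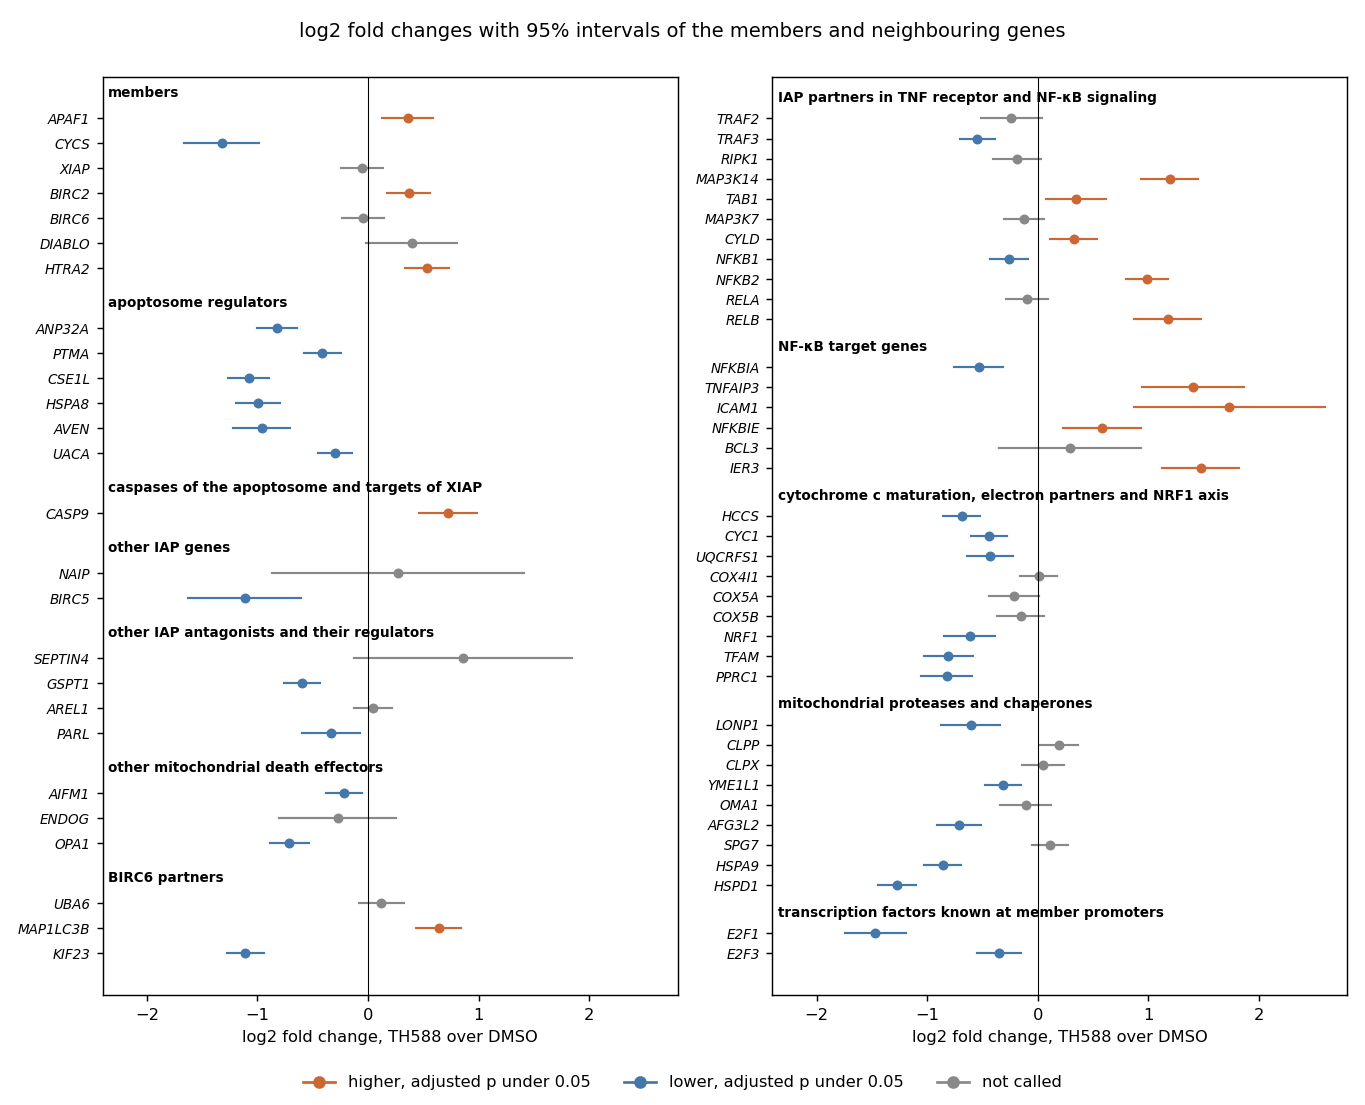
log2 fold changes (points) with 95% intervals (lines) of the 7 tested genes and of genes of the neighbouring lists described here. Orange marks genes higher and blue genes lower at an adjusted p under 0.05 in edgeR's quasi-likelihood test, and grey marks the rest. All 6 apoptosome regulators lie below 0, while *CASP9*, *NFKB2*, *RELB* and *MAP3K14* lie above it.

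The cIAPs act in TNF receptor signaling, where they ubiquitinate RIPK1 and, with the TRAF proteins, keep the kinase encoded by *MAP3K14* low, which restrains the noncanonical NF-κB pathway. Of 12 genes listed there, 11 were tested, 5 rose and 2 fell, against 24.4% higher and 25.5% lower over all genes tested. The largest rises were those of *MAP3K14*, from 14.1 ± 1.77 to 32.3 ± 4.23 CPM, *RELB*, from 5.03 ± 0.696 to 11.4 ± 1.47 CPM, and *NFKB2*, from 17.9 ± 0.643 to 35.4 ± 1.74 CPM (± SD, n = 3 each). Their log2 fold changes were 1.19, 1.17 and 0.98, and all 3 are parts of the noncanonical pathway. *TRAF3* and *NFKB1* fell, with log2 fold changes of -0.55 and -0.26, the latter losing its call in 4 of 13 other edgeR fits. Without DMSO replicate C, 4 genes of this list were called, against 6923 of all 16305 genes tested in that fit. *TRAF1* had at most 8 counts in any library.

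Of 12 NF-κB target genes, 11 were matched, since *SOD2* was not found by its identifier, and 6 of them were tested. Of these 4 rose, against 24.4% of all genes tested, the largest rises being those of *ICAM1*, *IER3* and *TNFAIP3*. *NFKBIA*, which encodes the main inhibitor of canonical NF-κB, fell by 0.53 on the log2 scale. The median log2 fold change of the 6 was 0.99, and that of the 11 signaling genes above was -0.10. Both *ICAM1* and *TNFAIP3* were low, with *ICAM1* at 0.202 ± 0.0729 and 0.681 ± 0.112 CPM, and *TNFAIP3* at 0.811 ± 0.0288 and 2.16 ± 0.257 CPM, with DMSO and TH588 (± SD, n = 3 each). The chemokine and cytokine genes *CXCL8*, *CXCL1*, *CXCL2*, *CCL2* and *IL6* had at most 3 counts in any library, and *BIRC3* is also a known NF-κB target.

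The fall of *CYCS* stood beside falls in part of its mitochondrial surroundings. For cytochrome c maturation, its electron partners and the NRF1 axis, 10 genes were listed and 9 were tested. Of the 9, 6 fell and 3 did not pass the test (median log2 fold change -0.44). Over all genes tested, 25.5% were lower. The largest falls were those of *PPRC1* (-0.82), a coactivator of NRF1, *TFAM* (-0.81), the mitochondrial transcription factor, and *HCCS* (-0.69), which attaches heme to cytochrome c, each smaller than that of *CYCS*. *NRF1* itself fell by 0.62 on the log2 scale. *CYC1* and *UQCRFS1*, subunits of the complex that hands electrons to cytochrome c, fell by 0.44 and 0.43. The other listed electron partners, *COX4I1* (0.01), *COX5A* (-0.21) and *COX5B* (-0.16), did not pass the test (edgeR adjusted p = 0.954, 0.110 and 0.209). Without TH588 replicate A, *COX5A* (-0.34) and *COX5B* (-0.27) were called lower and *COX4I1* (0.07) was not. These subunits and *NRF1* were named after their values were seen. *PPARGC1A* had 0 counts in every library. Per exon length, *CYCS* stood at 1.22 ± 0.0729 times the level of *CYC1* with DMSO and at 0.661 ± 0.143 times with TH588 (± SD, n = 3 each). Counts from mitochondrial genes took 0.441% to 0.562% of the total with DMSO and 0.494% to 0.704% with TH588.

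*HTRA2*, which rose, was set beside other proteases and chaperones of mitochondria. Of 9 such genes, 5 fell and 4 did not pass the test (median log2 fold change -0.31), against 25.5% lower over all genes tested. With library size only, 4 fell and 1 rose, *CLPP*, which is named after its value was seen. The largest falls were those of *HSPD1* (-1.27) and *HSPA9* (-0.86), both chaperones of the matrix, and *AFG3L2* (-0.71), a protease of the inner membrane. Among 3 genes around *BIRC6*, *UBA6*, the enzyme that charges it with ubiquitin, was at 0.12 (edgeR adjusted p = 0.315), *MAP1LC3B*, an autophagy gene whose product BIRC6 ubiquitinates, rose by 0.64, and *KIF23*, a midbody kinesin, fell by 1.11, around a median of 0.12, all on the log2 scale.

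Among transcription factors with known roles at *APAF1*, *E2F1* fell from 18.6 ± 0.326 to 6.70 ± 1.10 CPM (mean ± SD of 3 libraries each). This was a log2 fold change of -1.47 (edgeR adjusted p = 4.25e-07). *E2F3* fell by 0.35 on the log2 scale, a call that was lost with library size only.

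**Figure D5:**
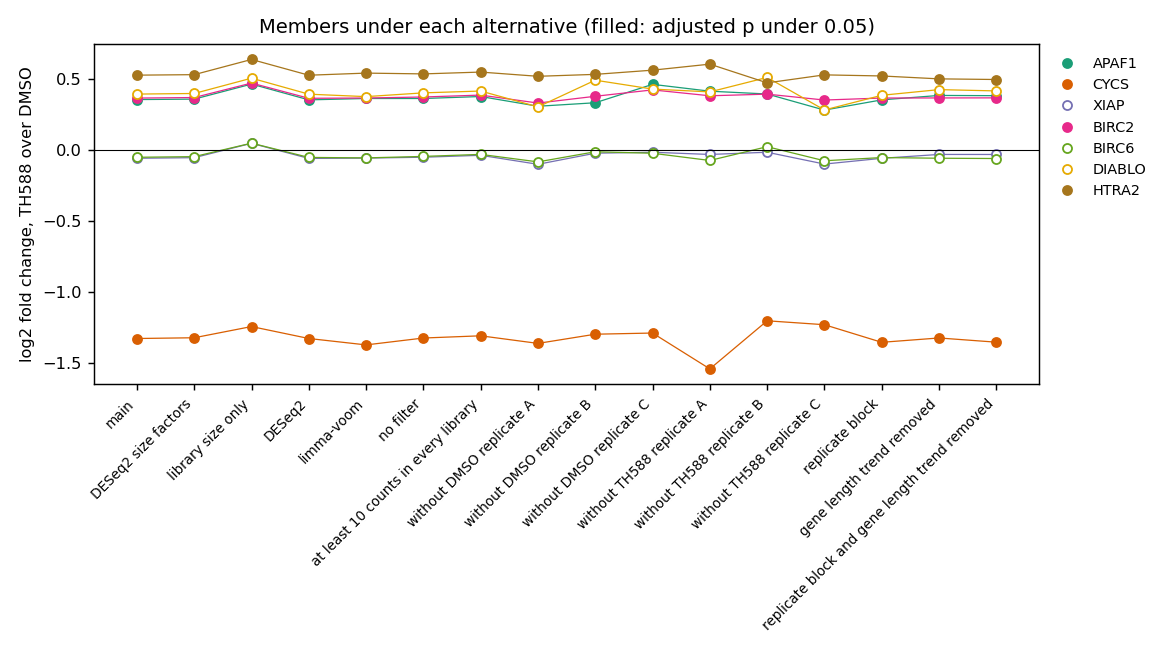
log2 fold change (TH588 over DMSO) of the 7 tested genes in the main comparison and in each alternative fit. Filled points had an adjusted p under 0.05. *CYCS* stays between -1.54 and -1.20, *HTRA2* and *BIRC2* are filled throughout, *APAF1* is open without TH588 replicate C, and *XIAP* and *BIRC6* cross 0 without passing the test.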

How the data were processed

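RNA-seq of 6 libraries was available, 3 with DMSO and 3 with TH588. Per the submitters' processing notes, reads were aligned with TopHat on GRCh38 and assigned to genes with featureCounts 1.4.6. The authors deposited the raw counts with the exon length of each gene, and totals were 28537837 to 99074175 counts per library. The strand, multi-mapping and overlap settings of featureCounts are not given in the sources used here. Genes were named by Ensembl identifier, with 57754 of 58336 matched.

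Counts were compared with edgeR 4.0.16 in R 4.3.3 (TMM scaling, default filter on low counts, robust quasi-likelihood fit, Benjamini-Hochberg adjustment over 15844 genes, threshold 0.05), without covariates. Each standard error was taken from the log2 fold change and the F statistic of its test. For 1 gene, an exact permutation test (two-sided) of 3 and 3 libraries reaches p = 0.1 at the lowest. The procedure was tested on simulated data, in which false calls exceeded the nominal rate. The design text speaks of independent experiments. Replicates differed by more than sampling noise (chi-square per degree of freedom of at least 25.2).

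The genes and lists were chosen with earlier results of these data known. Named genes are all 8 members, all genes of lists of up to 6 genes, otherwise the 3 largest called rises and falls and untested genes, and the 2 nearest profiles. Some genes of these lists are not reported here. Alternatives were DESeq2 (1.42.0) and its size factors, limma-voom (3.58.1), library size only, no filter, a minimum of 10 counts in all libraries, leaving out single libraries, the replicate letter as a block, removal of a gene length trend, and a threshold of 0.01. Promoter windows are from RefSeq.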

Additional observations from a re-analysis of the deposited data

How the results depend on the processing

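*CYCS*, *BIRC2* and *HTRA2* kept their direction and their call in all 16 alternatives, *DIABLO* kept its direction without passing the threshold, and *APAF1* kept its direction. *APAF1* lost its call at a threshold of 0.01 (log2 fold change 0.36) and without TH588 replicate C, with values from 0.28 to 0.46 over the 6 fits that each left out a library. Uncalled values changed sign for *XIAP* under library-size scaling (0.049), for *BIRC6* under the same scaling (0.050), and for *BIRC6* when TH588 replicate B was left out (-0.082 to 0.025 over the fits that left out a library). That scaling moved the median of all genes to 0.13 from 0.02. With library size only, 1 gene was called among the other IAP antagonists, and *UACA*, *AIFM1*, *PARL*, *NFKB1*, *YME1L1* and *E2F3* lost their calls while *CLPP* rose (0.30), *CLPP* and *YME1L1* being named after their values were seen. At a threshold of 0.01, 4 of the 11 tested IAP partners and 1 other IAP antagonist were called, against 5971 of all 15844 genes tested. Over the fits that left out a library, 4 to 7 IAP partners were called, and 1 to 2 of the other IAP antagonists. In the same fits 6885 to 7948 of all genes were called. The causes were not tested.

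Replicate letters showed no sign of pairing in the correlations below, which rest on 3 libraries per treatment and cannot exclude it. After centring each treatment on its mean, the correlations between libraries with the same letter were -0.33, -0.32 and -0.04, and 0 of 3 DMSO libraries correlated best with their own letter. Adding the replicate block gave 7327 called genes, 7254 of them also called without it, and no call of the 7 tested genes changed. *BIRC3* entered 6 alternatives, with log2 fold changes from -0.28 to 0.90 and no call. Depth limits *BIRC3* and *DIABLO* most, and TH588 replicate A has the highest detection limit.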
